A study of Bos taurus with 12 samples.

Results

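The genes described here make, sense and break down prostaglandins, and they were followed through fat cell differentiation in culture. They are 10 genes picked by symbol, PTGS1, PTGS2, PTGES, PTGIS, PTGDS, PTGFR, PTGER2, PTGER4, PTGR1 and HPGD, out of 33714 entries in the mRNA table. Each of the 10 had 1 entry there, and all 10 passed the filter on low values. The cells were intramuscular preadipocytes, precursors of the fat inside muscle, isolated from the longissimus dorsi of newborn Qinchuan cattle. The 0 d group was taken before induction and had received none of the inducers. The 3 d, 6 d and 9 d groups had all been treated for 48 h with dexamethasone, 0.5 mM IBMX and insulin, and then with insulin alone. The insulin dose was 5 µg/ml per the labels, and the paper states a different one. Each of the 4 days had 3 libraries, 12 in all, described by the study as biological replicates. The same inducers thus preceded all 3 later groups, and no group of the same age without inducers was used here, so that induction and time in culture cannot be told apart.

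Prostaglandins are short-lived lipid signals made from arachidonic acid, which phospholipases release from membranes. The cyclooxygenases PTGS1 and PTGS2 turn it into prostaglandin H2, and terminal synthases then make prostaglandin E2, D2, F2α, prostacyclin or thromboxane from that intermediate. Each product acts through its own G protein-coupled receptors and is inactivated by oxidation and reduction. In fat cell precursors, prostaglandin F2α acting on its receptor is known to restrain adipogenesis, whereas prostacyclin is known to promote it. Dexamethasone is a glucocorticoid, a class of hormone known to repress PTGS2, and IBMX raises cyclic AMP by blocking phosphodiesterases.

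Values are FPKM, counts of fragments scaled by transcript length and by the reads mapped in the library, which can be set side by side between genes because transcript length is divided out. The mRNA table holds no read counts, so the reads behind each value were not counted here. Summed FPKM ran from 1221194 in 3 d replicate 1 to 1371794 in 9 d replicate 1. A change was called where limma, fitted to log2(FPKM + 0.1) of all 15402 mRNAs with a mean of at least 0.1 FPKM, gave an absolute log2 fold change over 1 and an adjusted p under 0.05. Adding 0.1 makes fold changes of genes with low values smaller than the ratio of their means. The p-values measure the spread between these replicate libraries. How many animals stand behind the libraries was not known here, and the paper describes the days as the same batch of cells. The spread may thus not include that between animals. In RNA from whole cultures, fewer cells of a type and less RNA per cell cannot be told apart.

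After induction, the 3 terminal synthase mRNAs fell from their 0 d levels and the prostaglandin F receptor mRNA PTGFR rose. The cyclooxygenase mRNAs took turns: PTGS1 was high at 3 d and PTGS2 was high at 9 d. At 3 d vs. 0 d, 2 of the 10 genes were called higher (PTGS1 and PTGFR) and 5 lower (PTGES, PTGIS, PTGDS, PTGER2 and PTGER4). Over all mRNAs tested in that comparison, 8.06% were called higher and 15.2% lower. At 6 d vs. 0 d, PTGFR was the 1 gene called higher and PTGES, PTGIS, PTGDS and PTGER2 were the 4 called lower, beside 3.39% and 7.97% of all mRNAs. At 9 d vs. 0 d, PTGS2 and PTGFR were called higher and PTGIS and PTGDS lower, beside 3.41% and 7.47% of all mRNAs. These 3 comparisons share the 0 d libraries. PTGER2, counted as lower at 3 d and 6 d, passed the filter on low values only through 0 d and 9 d. Its calls thus add no support to these counts. The median log2 fold change of the 10 genes was −0.95, −0.71 and 0.06 on days 3, 6 and 9, where that of all mRNAs was −0.06, −0.15 and −0.19. PTGIS, PTGDS and PTGFR were called in all 3 comparisons and 8 genes in at least 1, beside 4.51% and 29.6% of all mRNAs, and PTGR1 and HPGD were the other 2.

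Between the later days, most calls of the prostaglandin genes were of higher values at 9 d. These comparisons share libraries, so their calls are not independent. PTGS2, PTGES, PTGFR and PTGER2 were counted as higher both at 9 d vs. 6 d and at 9 d vs. 3 d. At 6 d vs. 3 d, PTGS2 was called higher and PTGS1, PTGES and PTGR1 lower, 1 and 3 genes, beside 9.85% and 9.23% of all mRNAs. The single higher call, PTGS2, is thus near the background share. At 9 d vs. 6 d, the 4 genes PTGS2, PTGES, PTGFR and PTGER2 were called higher and none lower in limma (1 lower at an unadjusted p under 0.05, PTGIS), beside 2.55% and 1.89% of all mRNAs. PTGER2 passed the filter on low values only through 0 d and 9 d. Its call adds no support to this count, nor to that at 9 d vs. 3 d. The other genes with an adjusted p under 0.05 at 9 d vs. 6 d were PTGS1, PTGIS, PTGDS and PTGR1, with changes within the threshold, and only PTGIS among them was lower. At 9 d vs. 3 d, 5 genes were called higher (PTGS2, PTGES, PTGFR, PTGER2 and PTGER4) and PTGS1 was the 1 called lower, beside 10.2% and 10.3%. Median log2 fold changes of the 10 genes were −0.44, 0.74 and 0.78 in these comparisons, and those of all mRNAs −0.09, −0.04 and −0.13.

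**Figure D1:**
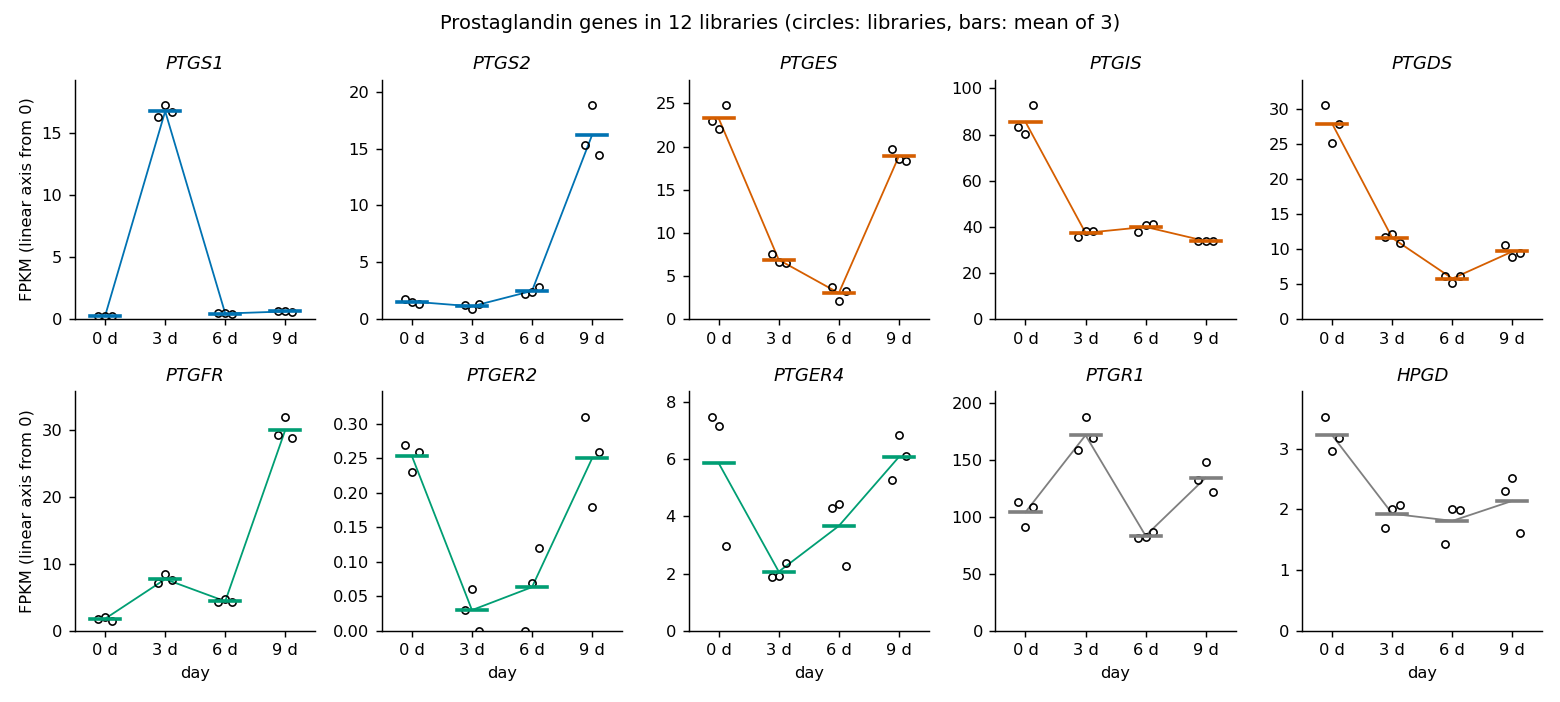
FPKM (linear axes from 0) of the 10 prostaglandin genes by day, with 1 circle per library, a bar at the mean of 3 libraries and lines joining the means (blue cyclooxygenases, orange synthases, green receptors, grey breakdown). PTGS1 stood near 16.8 FPKM at 3 d only, while PTGS2 and PTGFR were highest at 9 d, at means of 16.2 and 30.0 FPKM.

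PTGS1 encodes cyclooxygenase-1, usually described as the constitutive form of the enzyme. Its mRNA was listed at 0.27 FPKM in each of the 3 libraries of 0 d, and at 16.3, 17.2 and 16.7 FPKM at 3 d. At 6 d it stood at 0.46, 0.50 and 0.40 FPKM, and at 9 d at 0.62, 0.67 and 0.57 FPKM. The 3 libraries of 3 d thus lay far above the other 9, and no pair of days overlapped. PTGS1 rose by a log2 fold change of 5.51 ± 0.09 (SE, n = 3 per day) at 3 d vs. 0 d, a ratio of means of 62.0, with an adjusted p of 7.72e-11. It fell again after that, with a log2 fold change of −4.93 ± 0.09 vs. 3 d (adjusted p = 3.05e-10). Among mRNAs tested, PTGS1 moved from percentile 10.8 of mean FPKM at 0 d to 69.6 at 3 d and back to 19.2 at 6 d and 22.8 at 9 d. In the order of its levels, 9 d followed 3 d, then 6 d, then 0 d, and the low days differed by less than the threshold. Their log2 differences were 0.38 at 9 d vs. 6 d (adjusted p = 0.0176), 0.58 at 6 d vs. 0 d (adjusted p = 0.000963) and 0.96 at 9 d vs. 0 d (adjusted p = 3.62e-05). The last of these crossed the threshold with rescaled FPKM (1.11), with a pseudocount of 0.01 (1.17) and without 9 d replicate 3 (1.01).

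PTGS2 encodes cyclooxygenase-2, the inducible form. Its mRNA stood at 1.74, 1.54 and 1.36 FPKM at 0 d, at 1.21, 0.85 and 1.32 FPKM at 3 d and at 2.21, 2.37 and 2.87 FPKM at 6 d. At 9 d it reached 15.3, 18.8 and 14.5 FPKM, above all 9 earlier libraries. The 4 days did not overlap, with 3 d lowest, although the highest 3 d library lay close to the lowest of 0 d. PTGS2 rose at 9 d vs. 0 d by a log2 fold change of 3.30 ± 0.17, a ratio of means of 10.5 (adjusted p = 5.27e-07), and at 9 d vs. 6 d by 2.66 ± 0.17 (adjusted p = 5.73e-06). At 3 d vs. 0 d the log2 fold change was −0.44 (adjusted p = 0.0584) and at 6 d vs. 0 d it was 0.65 (adjusted p = 0.016), neither of them called. The call at 6 d vs. 3 d, a log2 fold change of 1.09 (adjusted p = 0.000517), lay just over the threshold. It was lost with a pseudocount of 1 (0.71), without 3 d replicate 2 (0.91) and without 6 d replicate 3 (0.98).

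As a pair, the cyclooxygenase mRNAs were high on 2 of the 4 days, and a different gene made up the sum on each. Summed FPKM of PTGS1 and PTGS2 averaged 1.82 ± 0.19 (SD, n = 3), 17.9 ± 0.303, 2.94 ± 0.306 and 16.8 ± 2.35 on days 0, 3, 6 and 9. The sums of 3 d and 9 d overlapped, running from 17.5 to 18.1 and from 15.0 to 19.5 FPKM. PTGS1 made up 92.7% to 95.3% of the sum in the libraries of 3 d. On days 0, 6 and 9 its share ran from 13.4% to 16.6%, from 12.2% to 17.4% and from 3.44% to 3.89%, so that PTGS2 was the main cyclooxygenase mRNA on the other 3 days. These shares are descriptions, without a test.

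The 3 terminal synthases were highest before induction. PTGES encodes the microsomal, inducible synthase of prostaglandin E2. This mRNA stood at 22.9, 22.1 and 24.8 FPKM at 0 d, at 7.50, 6.67 and 6.46 FPKM at 3 d, at 3.72, 2.14 and 3.21 FPKM at 6 d and at 19.8, 18.6 and 18.3 FPKM at 9 d. The 4 days did not overlap, and 9 d came back close to 0 d. PTGES fell at 3 d vs. 0 d (log2 fold change −1.75 ± 0.17, adjusted p = 9.87e-06) and at 6 d vs. 0 d (−2.94 ± 0.17, adjusted p = 5.92e-07), where 0 d was 7.70 times as high. It then rose from 6 d to 9 d by 2.64 ± 0.17 (adjusted p = 4.33e-06). The difference between 9 d and 0 d, −0.30, was not called (adjusted p = 0.192). The call of PTGES at 6 d vs. 3 d (log2 fold change −1.19, adjusted p = 0.000193) was lost with a pseudocount of 1 (−0.99) and without 6 d replicate 2 (−0.97).

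PTGIS encodes prostacyclin synthase and was the most abundant of the 3 synthase mRNAs on every day. It stood at 83.5, 80.3 and 92.7 FPKM at 0 d, at 35.5, 38.3 and 38.3 FPKM at 3 d, at 38.0, 40.8 and 41.2 FPKM at 6 d and at 33.7, 33.9 and 33.9 FPKM at 9 d. All 9 libraries of induced cells lay below all 3 of 0 d, and those of 3 d and 6 d overlapped. PTGIS fell by a log2 fold change of −1.19 ± 0.07 at 3 d (adjusted p = 1.75e-07), −1.09 ± 0.07 at 6 d (adjusted p = 9.08e-07) and −1.33 ± 0.07 at 9 d (adjusted p = 3.3e-07), each vs. 0 d. The 6 d value moved to −0.93 with rescaled FPKM and was then not called. Neighbouring days in its later order differed little, by 0.10 at 6 d vs. 3 d (adjusted p = 0.252) and −0.14 at 9 d vs. 3 d (adjusted p = 0.0961).

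PTGDS encodes the lipocalin-type synthase of prostaglandin D2, which also carries small hydrophobic molecules. The mRNA stood at 30.45, 25.2 and 27.8 FPKM at 0 d, at 11.7, 12.1 and 10.9 FPKM at 3 d, at 6.08, 5.09 and 6.18 FPKM at 6 d and at 10.6, 8.92 and 9.42 FPKM at 9 d. Libraries of 0 d were the highest and those of 6 d the lowest, and no pair of days overlapped, though 3 d and 9 d lay close. PTGDS fell at 3 d, 6 d and 9 d vs. 0 d, with log2 fold changes of −1.26 ± 0.10 (adjusted p = 3.78e-06), −2.25 ± 0.10 (adjusted p = 1.75e-07) and −1.52 ± 0.10 (adjusted p = 3e-06). At 9 d vs. 3 d its log2 fold change was −0.26 (adjusted p = 0.0607), and at 9 d vs. 6 d it was 0.73 (adjusted p = 0.000907), neither of them called. The log2 fold change of PTGDS at 6 d vs. 3 d was −0.99 (adjusted p = 2.88e-05) and lay at the threshold. It was called without 3 d replicate 3 (−1.03), without 6 d replicate 1 (−1.03), without 6 d replicate 3 (−1.04) and with a pseudocount of 0.01 (−1.001).

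Taken over the 3 synthases, summed FPKM averaged 136.6 ± 8.84 (SD), 55.8 ± 1.18, 48.8 ± 1.59 and 62.4 ± 1.45 on days 0, 3, 6 and 9. The 0 d libraries were thus the highest in sum, and 9 d the highest of the induced days. Over these days in the same order, PTGIS made up 61.0% to 63.8%, 64.9% to 68.8%, 79.5% to 84.9% and 52.6% to 55.2% of the sum. The mean shares of PTGES were 17.1%, 12.3%, 6.20% and 30.3%. At 9 d, the prostaglandin E2 synthase thus held its largest share of the 4 days while the level of PTGIS stayed low.

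**Figure D2:**
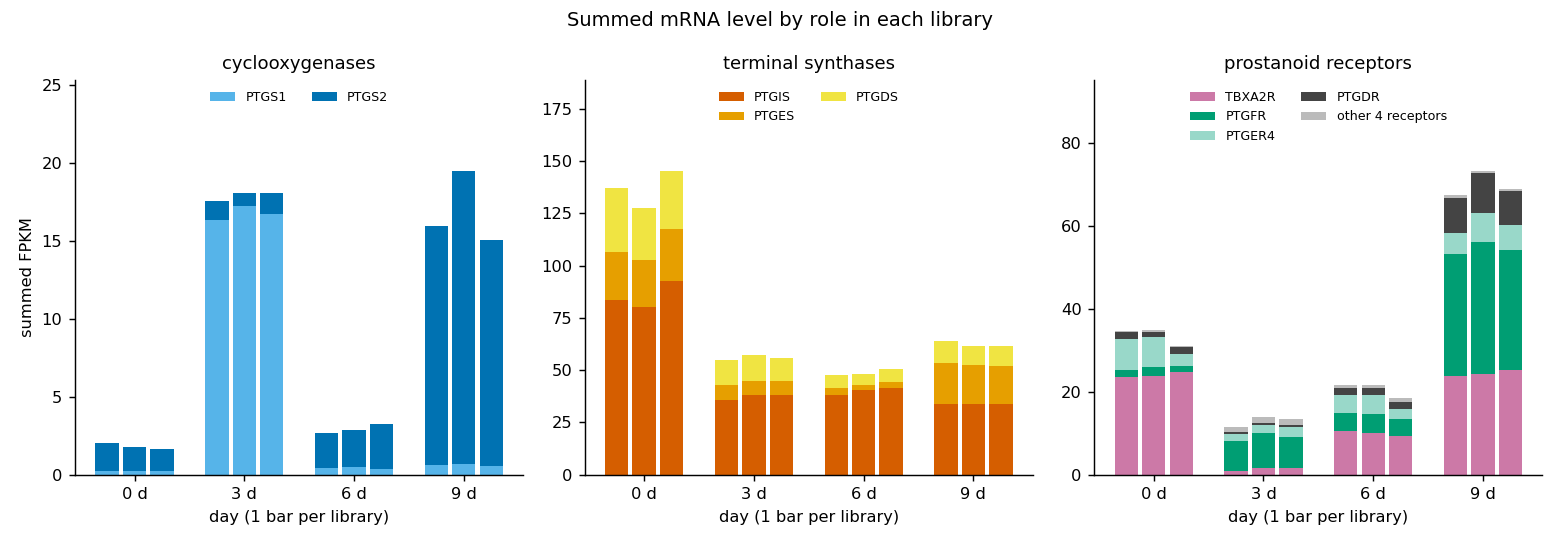
Summed FPKM in each of the 12 libraries (1 bar per library, grouped by day, axes from 0) of the cyclooxygenases, the 3 terminal synthases and 8 prostanoid receptors, coloured by gene. The cyclooxygenase sum was 17.9 FPKM at 3 d and 16.8 FPKM at 9 d, mostly PTGS1 on the first and PTGS2 on the second of these days.

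PTGFR encodes the receptor of prostaglandin F2α, which signals through calcium. Its mRNA stood at 1.82, 2.13 and 1.47 FPKM at 0 d, at 7.15, 8.44 and 7.57 FPKM at 3 d, at 4.25, 4.70 and 4.29 FPKM at 6 d and at 29.3, 32.0 and 28.8 FPKM at 9 d. No pair of days overlapped, and the 9 d libraries were the highest and the 0 d libraries the lowest. PTGFR rose vs. 0 d on all 3 later days, with log2 fold changes of 2.05 ± 0.12 at 3 d (adjusted p = 3.51e-07), 1.26 ± 0.12 at 6 d (adjusted p = 3.02e-05) and 4.0 ± 0.12 at 9 d (adjusted p = 1.81e-08). The ratio of means at 9 d was 16.6. The 6 d call was lost with a pseudocount of 1 (0.95). Between later days, PTGFR had a log2 fold change of −0.79 at 6 d vs. 3 d, which was not called (adjusted p = 0.000429), and rose by 2.74 ± 0.12 at 9 d vs. 6 d (adjusted p = 6.42e-07).

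PTGER4 encodes the EP4 receptor of prostaglandin E2, which raises cyclic AMP. Its mRNA stood at 7.47, 7.14 and 2.96 FPKM at 0 d, at 1.89, 1.93 and 2.38 FPKM at 3 d, at 4.29, 4.42 and 2.28 FPKM at 6 d and at 5.27, 6.85 and 6.10 FPKM at 9 d. Replicate 3 lay far below the other libraries at both 0 d and 6 d. The 3 d libraries lay below all of 0 d and 9 d, and 6 d overlapped with 3 d and with 0 d. PTGER4 fell at 3 d vs. 0 d (log2 fold change −1.36 ± 0.35, adjusted p = 0.00843) and was higher at 9 d than at 3 d (1.51 ± 0.35, adjusted p = 0.00495). Its values at 6 d and 9 d vs. 0 d, −0.61 (adjusted p = 0.221) and 0.15 (adjusted p = 0.771), turned on 1 library. Without 0 d replicate 3 they were −1.03 (adjusted p = 0.0162), which is called, and −0.27 (adjusted p = 0.472). Likewise, the log2 fold change at 6 d vs. 3 d was 0.75 (adjusted p = 0.106), and 1.05 (adjusted p = 0.0363) without 6 d replicate 3. It was not called at 9 d vs. 6 d either (0.76, adjusted p = 0.169).

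PTGER2 encodes EP2, the other receptor through which prostaglandin E2 raises cyclic AMP, and lay near the floor of detection. Values were 0.27, 0.23 and 0.26 FPKM at 0 d, at 0.03, 0.06 and 0 FPKM at 3 d, at 0, 0.07 and 0.12 FPKM at 6 d and at 0.31, 0.18 and 0.26 FPKM at 9 d. The libraries of 3 d and 6 d lay below those of 0 d and 9 d, and the days overlapped within each of these pairs. PTGER2 passed the filter of 0.1 FPKM only through 0 d and 9 d, at means of 0.253 and 0.25 FPKM. Its means at 3 d and 6 d, 0.03 and 0.0633 FPKM, lay below that minimum, so its calls are given as descriptions. PTGER2 was called lower at 3 d (log2 fold change −1.47 ± 0.29, adjusted p = 0.00162) and 6 d (−1.18 ± 0.29, adjusted p = 0.0094) vs. 0 d. It was called higher at 9 d vs. 6 d (1.16 ± 0.29, adjusted p = 0.018) and vs. 3 d (1.44 ± 0.29, adjusted p = 0.00201). All 4 calls of PTGER2 were lost with a pseudocount of 1, where the log2 fold changes were −0.28, −0.24, 0.23 and 0.28, and it had too low a mean to be tested with a minimum of 1 FPKM. The 6 d vs. 0 d call was also lost without 6 d replicate 1 (−0.87) and with a pseudocount of 0.01 (a larger −2.48, but adjusted p = 0.069). The 9 d vs. 6 d call was lost without 6 d replicate 1 (0.84), without 9 d replicate 1 (1.03, adjusted p = 0.0656) and without 9 d replicate 3 (1.13, adjusted p = 0.0537). It was also lost with only the 6 libraries compared (1.16, adjusted p = 0.0683) and with a pseudocount of 0.01 (a larger 2.43, but adjusted p = 0.103). At 9 d vs. 0 d the log2 fold change was −0.03 (adjusted p = 0.952).

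The 3 receptors belong to a family of prostanoid receptors, of which 8 genes had values here, PTGER1 not being analysed here. The summed FPKM of the 8 averaged 33.6 ± 2.18 (SD), 12.99 ± 1.26, 20.6 ± 1.82 and 69.9 ± 3.07 on days 0, 3, 6 and 9, with no overlap between days. TBXA2R, the thromboxane receptor, made up 67.8% to 79.5% of the sum at 0 d and 7.70% to 12.2% at 3 d, and then 46.3% to 50.0% and 33.1% to 36.7% on days 6 and 9. Day by day, PTGFR made up 4.73% to 6.10%, 56.1% to 61.9%, 19.7% to 23.1% and 41.8% to 43.6%. TBXA2R thus led at 0 d and 6 d, and PTGFR at 3 d and 9 d. PTGER4 had mean shares of 17.1%, 15.9%, 17.5% and 8.67% over the 4 days, and PTGER2 stayed at or below 0.837% in every library. PTGIR, the receptor for the prostacyclin made by the product of PTGIS, made up at most 0.925% of the sum in any library.

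PTGR1 and HPGD act after the signal. PTGR1 encodes a reductase that acts on oxidised prostaglandins and on leukotriene B4, and its mRNA was the most abundant of the 10 on every day. It stood at 112.8, 91.7 and 108.5 FPKM at 0 d, at 158.8, 188.0 and 169.3 FPKM at 3 d, at 81.2, 82.5 and 87.2 FPKM at 6 d and at 133.0, 148.0 and 122.5 FPKM at 9 d. The days did not overlap, with 3 d highest, then 9 d, 0 d and 6 d. PTGR1 fell at 6 d vs. 3 d by a log2 fold change of −1.04 ± 0.10 (adjusted p = 1.39e-05). That call lay at the threshold and was lost with rescaled FPKM (−0.96) and without 3 d replicate 2 (−0.97). Its log2 fold changes vs. 0 d, 0.72 at 3 d (adjusted p = 0.000144), −0.31 at 6 d (adjusted p = 0.0326) and 0.37 at 9 d (adjusted p = 0.0152), were not called.

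HPGD encodes the dehydrogenase that begins the inactivation of prostaglandins E2 and F2α. Levels of this mRNA were 3.52, 2.96 and 3.17 FPKM at 0 d, at 1.70, 2.01 and 2.07 FPKM at 3 d, at 1.43, 2.01 and 1.99 FPKM at 6 d and at 2.30, 2.51 and 1.61 FPKM at 9 d. The 0 d libraries lay above all 9 others, and the 3 later days overlapped with each other. HPGD was not called by limma in any of the 6 comparisons. Its log2 fold changes vs. 0 d were −0.71 (adjusted p = 0.00747), −0.81 (adjusted p = 0.00607) and −0.59 (adjusted p = 0.0287) at 3 d, 6 d and 9 d, each with an SE of 0.18, so that the adjusted p passed and the size did not. Between the later days its adjusted p ranged up to 0.69.

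**Figure D3:**
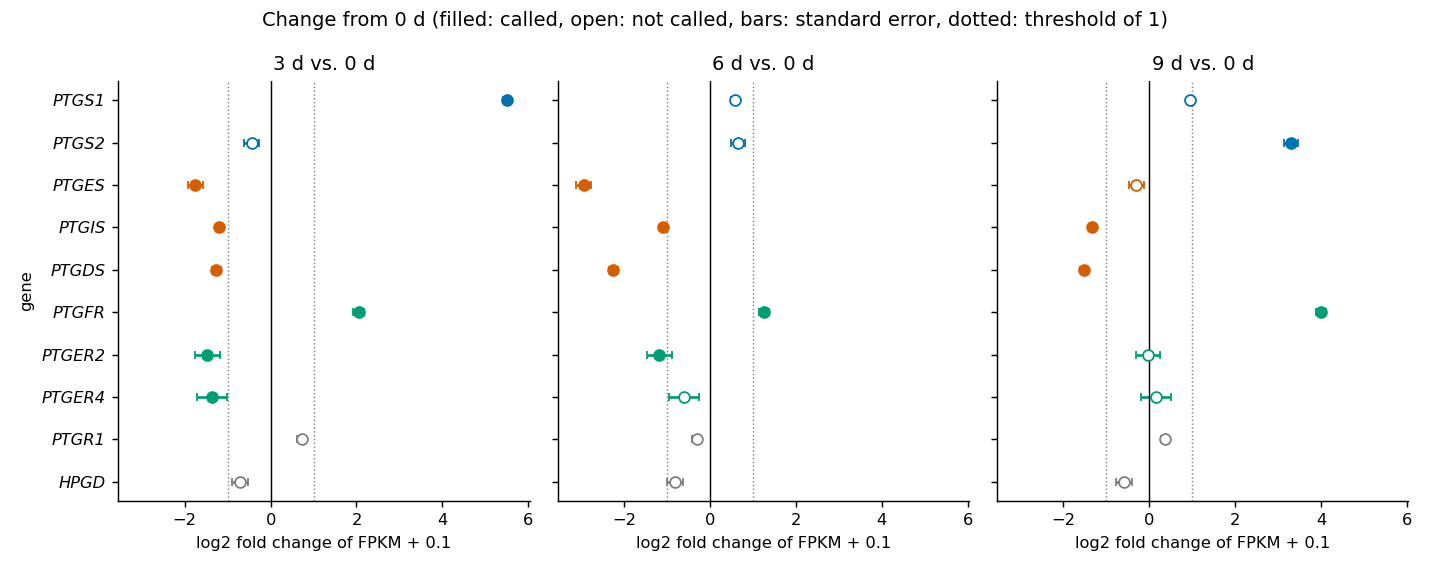
Log2 fold change of FPKM + 0.1 of the 10 prostaglandin genes at 3 d, 6 d and 9 d vs. 0 d, with standard errors, filled where called and open where not, and dotted lines at 1 and −1. PTGFR lay to the right on all 3 days (2.05, 1.26 and 4.0), PTGIS and PTGDS to the left, and PTGS1 and PTGS2 lay past 1 on different days.

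The scale of the libraries moved some of these values. Rescaling FPKM by the median ratio between libraries raised the median log2 fold change of all mRNAs vs. 0 d by 0.08, 0.15 and 0.19 on days 3, 6 and 9, and by 0.11 at 9 d vs. 3 d. With it, the higher calls made up 40.4% of all calls at 6 d vs. 0 d in place of 29.8%, and 46.4% in place of 31.3% at 9 d. Relative to the median of all mRNAs, the log2 fold changes at 6 d vs. 0 d were −2.79 for PTGES, −2.10 for PTGDS, −0.94 for PTGIS, −1.03 for PTGER2 and 1.41 for PTGFR. PTGIS thus lay within the threshold of 1 on this scale at 6 d. Relative to the median at 9 d vs. 0 d, they were −1.14 for PTGIS, −1.32 for PTGDS, 3.50 for PTGS2 and 4.19 for PTGFR, with PTGS1 at 1.15. Relative to the median at 9 d vs. 3 d, they were 3.87 for PTGS2, 1.57 for PTGES, 2.08 for PTGFR, 1.56 for PTGER2, 1.64 for PTGER4 and −4.42 for PTGS1. No called value of these genes changed its direction with the rescaling.

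Other genes of the pathway were taken from a list of 56 eicosanoid genes, of which 47 had an entry and 30 passed the filter on low values. At 3 d vs. 0 d, 1 of the 30 was called higher (PTGER3) and 6 lower (ANXA1, DAGLA, MGLL, PTGDR, TBXA2R and SLCO3A1), beside 8.06% and 15.2% of all mRNAs. At 6 d vs. 0 d, PTGER3, LTB4R and LTB4R2 were called higher and TBXA2R lower, 3 and 1 beside 3.39% and 7.97%. PTGER3 passed the filter on low values only through 3 d and 6 d, at means of 1.23 and 0.487 FPKM. SLCO3A1 lay below the minimum of 0.1 FPKM at 3 d, at 0.0967 FPKM. The calls of PTGER3 and SLCO3A1 thus add no support to these counts. At 9 d vs. 0 d, PLA2G4A, PTGDR, LTB4R and LTB4R2 were called higher and MGLL and PTGR2 lower, 4 and 2 beside 3.41% and 7.47%. The medians over the 30 genes were −0.01, −0.15 and −0.02 in these comparisons, where those of all mRNAs were −0.06, −0.15 and −0.19. Between later days, 6 were called higher and 2 lower at 6 d vs. 3 d (9.85% and 9.23% of all mRNAs), 4 and 2 at 9 d vs. 6 d (2.55% and 1.89%), and 9 and 2 at 9 d vs. 3 d (10.2% and 10.3%). These counts include PTGER3, lower each time, and SLCO3A1, higher at 6 d and at 9 d vs. 3 d. PTGIR, higher at 9 d vs. 3 d, passed the filter only through 6 d and 9 d, at means of 0.18 and 0.203 FPKM. The calls of PTGIR, PTGER3 and SLCO3A1 add no support here either. Of the 6 tested genes of other prostanoid synthases, led by PTGES3 at a mean of 54.7 FPKM, none was called in limma at 3 d, 6 d or 9 d vs. 0 d, where 3, 1 and 2 had an unadjusted p under 0.05. PTGES2, another prostaglandin E2 synthase, had means of 27.7, 16.0, 25.3 and 23.3 FPKM over the 4 days. The thromboxane synthase TBXAS1 was listed at 0 in 11 libraries and at 0.01 FPKM in the other.

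Of the other prostanoid receptors tested, TBXA2R, PTGDR and PTGER3 were called vs. 0 d on at least 1 day and PTGIR on none. PTGFRN, an inhibitor linked to the F receptor, lay just within the threshold at 6 d vs. 0 d, at means of 59.4 and 31.1 FPKM with all 6 d libraries above those of 0 d (log2 fold change 0.93 ± 0.06, adjusted p = 2.12e-06, and 1.09 after subtracting the median of all mRNAs). It was 0.61 at 9 d vs. 0 d (adjusted p = 5e-05). TBXA2R stood at 23.6, 23.9 and 24.7 FPKM at 0 d, at 0.89, 1.52 and 1.65 FPKM at 3 d, at 10.6, 10.1 and 9.27 FPKM at 6 d and at 23.8, 24.3 and 25.3 FPKM at 9 d. The 3 d libraries were thus the lowest, 6 d lay between, and 9 d overlapped with 0 d. TBXA2R fell at 3 d vs. 0 d (log2 fold change −4.10 ± 0.18, adjusted p = 2.97e-08) and at 6 d vs. 0 d (−1.26 ± 0.18, adjusted p = 0.000342), and was 0.03 at 9 d (adjusted p = 0.932). PTGDR, a receptor of prostaglandin D2, stood at 1.49, 1.36 and 1.60 FPKM at 0 d, at 0.35, 0.62 and 0.40 FPKM at 3 d, at 1.90, 1.66 and 1.80 FPKM at 6 d and at 8.29, 9.71 and 8.11 FPKM at 9 d. It was lowest at 3 d and highest at 9 d, with no overlap between days. PTGDR fell at 3 d vs. 0 d (−1.54 ± 0.16, adjusted p = 2.46e-05, lost with a pseudocount of 1 at −0.77) and rose at 9 d vs. 0 d (2.47 ± 0.16, adjusted p = 2.32e-06). PTGER3, the EP3 receptor of prostaglandin E2, was listed at 0, 0.02 and 0 FPKM at 0 d, at 1.14, 1.18 and 1.37 FPKM at 3 d, at 0.31, 0.61 and 0.54 FPKM at 6 d and at 0.10, 0.03 and 0.06 FPKM at 9 d. It was called higher at 3 d (adjusted p = 4.15e-07) and 6 d (adjusted p = 2.04e-05) vs. 0 d, and no fold is given because 0 d lay at or near 0. The 6 d call of PTGER3 was lost with a pseudocount of 1 (adjusted p = 0.000188, log2 fold change within the threshold).

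Upstream, 10 genes of arachidonic acid release were tested, of which 4 were called vs. 0 d in at least 1 comparison, beside 29.6% of all mRNAs. They were ANXA1, DAGLA and MGLL, lower at 3 d, and PLA2G4A, higher at 9 d, where MGLL was called lower. PLA2G4A, the cytosolic phospholipase that releases arachidonic acid, stood at 11.1, 8.80 and 10.2 FPKM at 0 d, at 14.3, 14.0 and 12.04 FPKM at 3 d, at 15.9, 16.9 and 15.9 FPKM at 6 d and at 46.2, 49.2 and 45.0 FPKM at 9 d. The 9 d libraries lay above all others. PLA2G4A rose at 9 d vs. 0 d by a log2 fold change of 2.22 ± 0.10 (adjusted p = 1.57e-07) and at 9 d vs. 6 d by 1.52 ± 0.10 (adjusted p = 4.66e-06), on the same day as PTGS2. ANXA1, a glucocorticoid-linked inhibitor of phospholipase A2, had means of 410.5, 189.9, 503.8 and 524.2 FPKM over the 4 days and fell at 3 d vs. 0 d (−1.12 ± 0.08, adjusted p = 1.09e-06). DAGLA and MGLL encode a diacylglycerol lipase and a monoacylglycerol lipase that can feed arachidonic acid to the pathway. DAGLA had means of 2.12 and 0.337 FPKM at 0 d and 3 d and fell at 3 d vs. 0 d (−2.34 ± 0.18, adjusted p = 1.8e-06). MGLL stood at 212.9, 207.5 and 99.1 FPKM at 0 d, at 37.5, 41.4 and 47.9 FPKM at 3 d and at 48.2, 87.4 and 119.4 FPKM at 9 d. Its 3 d libraries lay below those of 0 d, while 9 d overlapped with 0 d, where replicate 3 was low. MGLL fell at 3 d vs. 0 d (−1.96 ± 0.35, adjusted p = 0.000918). Its 9 d call (−1.04 ± 0.35, adjusted p = 0.0417) was lost without 0 d replicate 1 (−0.85), without 0 d replicate 2 (−0.87), without 9 d replicate 1 (−0.68), without 9 d replicate 2 (adjusted p = 0.0736), with rescaled FPKM (−0.84), with no filter on low values (adjusted p = 0.0565) and with only the 6 libraries compared (adjusted p = 0.13).

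The genes of transport, other breakdown and the leukotriene branch that were called vs. 0 d had low values, while ZADH2, named after its values were seen and not called vs. 0 d, had a mean of 50.9 FPKM. SLCO3A1, a prostaglandin transporter, had means of 0.507 FPKM at 0 d and 0.0967 FPKM at 3 d and was called lower at 3 d (log2 fold change −1.64 ± 0.22, adjusted p = 0.000136), a call lost with a pseudocount of 1 (−0.46). PTGR2, a reductase related in function to PTGR1, stood at 1.06, 1.05 and 0.86 FPKM at 0 d and at 0.13, 0.10 and 0.64 FPKM at 9 d, where replicate 3 lay well above the other libraries of its day. It was called lower at 9 d vs. 0 d (−1.74 ± 0.40, adjusted p = 0.00681), a call lost with a pseudocount of 1 (−0.65), and the log2 fold change was −2.34 without 9 d replicate 3. LTB4R and LTB4R2 are neighbouring genes for receptors of leukotriene B4, a substrate of the PTGR1 product. LTB4R had means of 0.170, 0.307, 0.447 and 1.86 FPKM over the 4 days and LTB4R2 had 0.210, 0.287, 0.580 and 1.19 FPKM. LTB4R rose at 9 d vs. 0 d by 2.86 ± 0.18 (adjusted p = 1.68e-06). LTB4R2 rose by 2.19 ± 0.36 (adjusted p = 0.000977), a call lost with a pseudocount of 1 (0.86). At 6 d vs. 0 d, LTB4R lay at the threshold (1.00 ± 0.18, adjusted p = 0.00174) and was not called without 0 d replicate 1 (0.95), 0 d replicate 2 (0.98), 6 d replicate 1 (0.88) or 6 d replicate 2 (0.96), or with a pseudocount of 1 (0.30). LTB4R2 at 6 d vs. 0 d (1.27 ± 0.36, adjusted p = 0.0198) was not called without 0 d replicate 2 (0.82), 6 d replicate 1 (adjusted p = 0.0619) or 6 d replicate 2 (adjusted p = 0.0529), with only the 6 libraries compared (adjusted p = 0.0734) or with a pseudocount of 1 (0.39). ALOX5AP, ALOX15B, CYSLTR1 and CYSLTR2 were listed at 0 in all 12 libraries.

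**Figure D4:**
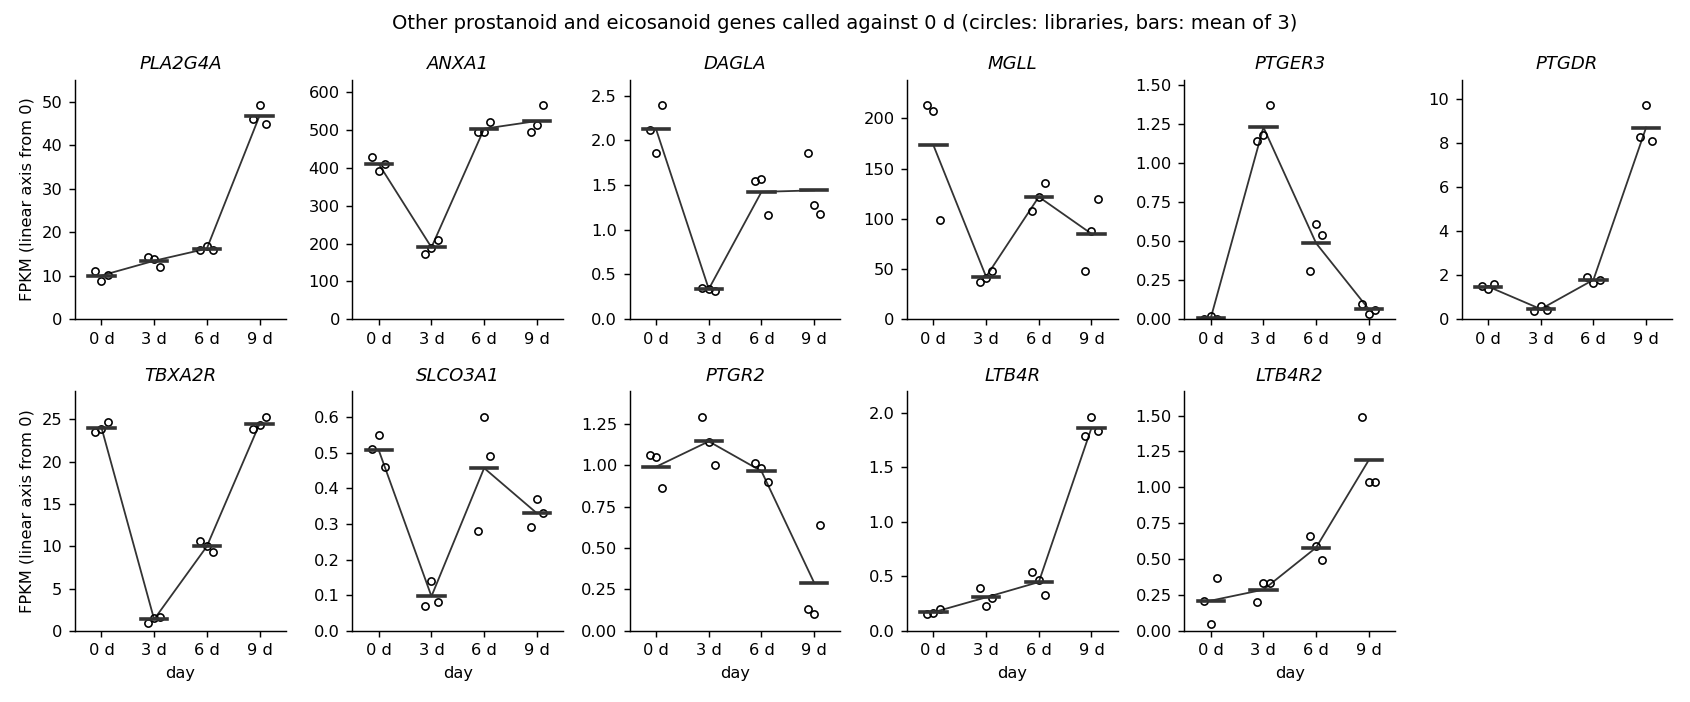
FPKM (linear axes from 0) by day of the 11 other eicosanoid genes called at 3 d, 6 d or 9 d vs. 0 d, with 1 circle per library and a bar at the mean of 3 libraries. TBXA2R stood near 24.0 FPKM at 0 d and 1.35 FPKM at 3 d, and PLA2G4A and PTGDR were highest at 9 d, at means of 46.8 and 8.70 FPKM.

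The prostaglandin genes with a mean of at least 1 FPKM were compared with 10213 other mRNAs for likeness over the 12 libraries, as Pearson r of log2(FPKM + 0.1). The 12 points fall into 4 days, so that r mostly restates the order of the days, and it is given as a description. PTGS1 was most like S1PR1 (r = 0.996) and PDGFRA (r = 0.995), both highest at 3 d, and 506 mRNAs reached r = 0.9 with it. PTGS2 was most like FBXL5 (r = 0.982) and DUSP5 (r = 0.981), of which DUSP5 had means of 34.9, 30.6, 39.9 and 109.2 FPKM over the 4 days. PTGFR was most like DSEL (r = 0.980) and SOCS3 (r = 0.973), also highest at 9 d, with 29 mRNAs at r = 0.9 or above. PTGES was most like PHF2 (r = 0.980) and the joint entry of PLXDC2 and ADNCR (r = 0.978). PTGIS was most like IDH1 (r = 0.989) and RAPSN (r = 0.986), which had their highest means at 0 d. PTGDS was most like RDH10 (r = 0.979) and BCAM (r = 0.978), PTGR1 like GCLC (r = 0.976) and TMCO3 (r = 0.967), and HPGD like PRR19 (r = 0.948) and MAPK7 (r = 0.910). PTGER4, whose replicates differed most among the 9 genes compared, was most like TRDMT1 (r = 0.911) and PUM2 (r = 0.893).

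Lists of genes that respond to the inducers, of inflammatory genes and of lipid synthesis were set beside the prostaglandin genes. Of all mRNAs, 8.06% were called higher and 15.2% lower at 3 d vs. 0 d. The higher and lower shares were 3.39% and 7.97% in the 6 d comparison with 0 d, and 3.41% and 7.47% in that of 9 d. Between later days the shares were 9.85% and 9.23% at 6 d vs. 3 d, 2.55% and 1.89% at 9 d vs. 6 d, and 10.2% and 10.3% at 9 d vs. 3 d. Of 12 tested genes of the glucocorticoid list, 8 were called higher and 1 lower at 3 d vs. 0 d, led by ZBTB16, FKBP5 and MT2A with log2 fold changes of 9.29, 7.02 and 5.21. The lower call was lost without 0 d replicate 2, 3 d replicate 1 or 3 d replicate 2, and FKBP5 stood at 7.79 without 3 d replicate 2. The glucocorticoid list summed to means of 866.5, 2341, 2119 and 1864 FPKM over the 4 days, with TXNIP as its most abundant gene. Vs. 0 d, 9 of the 12 were called higher and none lower in limma at 6 d (1 lower at an unadjusted p under 0.05), and 6 higher and 1 lower at 9 d. In limma, 1 was called higher and 6 lower at 6 d vs. 3 d, none and 6 at 9 d vs. 6 d (4 higher at an unadjusted p under 0.05, and 1 called without 6 d replicate 1), and 1 and 8 at 9 d vs. 3 d. Of 17 tested genes of the cyclic AMP list, 5 were called higher and none lower in limma at 3 d (2 lower at an unadjusted p under 0.05), with log2 fold changes of 9.05 for STC1, 2.94 for PER1 and 2.56 for PDE4D. PDE4D stood at 119.4, 716.6 and 725.2 FPKM at 3 d, and without 3 d replicate 1 its log2 fold change was 3.42. The list summed to 587.3, 1856, 1142 and 1120 FPKM, with 1408.6 in 3 d replicate 1 against 2065.5 and 2093.1, DUSP1 was its most abundant gene, and PER1 and DUSP1 stand in both lists. Calls of the cyclic AMP list were 3 higher and 2 lower at 6 d vs. 0 d, and 4 and 1 at 9 d vs. 0 d. In limma they were none and 6 at 6 d vs. 3 d (3 higher at an unadjusted p under 0.05). They were 4 and 1 at 9 d vs. 6 d, and 3 and 3 at 9 d vs. 3 d. Of 12 tested inflammatory genes, the kind often induced together with PTGS2, 5 were called higher and 3 lower at 3 d. They were led by TNFAIP3 (3.02), NFKBIA (2.67) and CXCL2 (−2.52). Of the 12, 1 was called higher and 4 lower at 6 d vs. 0 d, and 2 and 2 at 9 d vs. 0 d (1 lower without 0 d replicate 1 or 9 d replicate 1). The inflammatory list summed to 133.7, 354.4, 74.7 and 137.1 FPKM, with CXCL5 the most abundant by mean. PTGS2 was called higher in all 3 comparisons between later days, where the inflammatory counts were 1 higher and 5 lower at 6 d vs. 3 d (2 higher without 3 d replicate 3 or 6 d replicate 2), 5 and 1 at 9 d vs. 6 d (2 lower without 9 d replicate 3), and 3 and 5 at 9 d vs. 3 d. Of 7 genes of lipid synthesis, 3 were called higher and none lower at 3 d in limma, nor lower at an unadjusted p under 0.05 (SCD and GPAM, at 3.34 and 2.82, and DGAT2, without a fold because 0 d lay at or near 0), with sums of 1614, 3378, 2107 and 1942 FPKM, mainly from FASN. The part of these genes in the prostaglandin results was not tested.

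Markers of the labelled cell type and of other cell types also differed between the days, and the shares of all mRNAs called at 3 d vs. 0 d are 8.06% higher and 15.2% lower. Of 9 tested adipocyte markers, 5 were called higher and 2 lower at 3 d vs. 0 d, with log2 fold changes of 4.75 for FABP4 and 3.11 for CD36. The 2 lower calls were LEP and CIDEA, of which 1 was lost without 0 d replicate 2 or 3 d replicate 2. LEP had means of 2.34, 0.0700, 8.02 and 20.5 FPKM, with 2 of the 3 d libraries at 0, and was called higher at 6 d and 9 d vs. 0 d. On each of these days 6 of the 9 markers were called higher, beside 3.39% and 3.41% of all mRNAs. The adipocyte list summed to 22.8, 113.0, 48.9 and 52.5 FPKM over the 4 days, with FABP4 the most abundant by mean and LEP at 9 d, and PPARG and PLIN1 were not analysed here. ADIPOQ, named after its values were seen, had means of 0.0233, 0.723, 0.700 and 0.603 FPKM, and its 6 d mean rests on replicate 1, with values of 1.64, 0.22 and 0.24 FPKM. ADIPOQ was called higher at 3 d, 6 d and 9 d vs. 0 d. It passed the filter on low values only through these days, so its calls add no support to the adipocyte counts. CEBPA, named likewise, was highest at 3 d, at 0.18, 0.22 and 0.26 FPKM. Of 10 tested markers of preadipocytes and fibroblasts, 4 were called higher and 4 lower at 3 d, with FAP at −3.50, PDGFRA at 2.54 and DCN at 2.09. That list summed to 119800, 171900, 132000 and 220200 FPKM, with COL3A1 the most abundant, and it holds PDGFRA, the gene second most like PTGS1. Skeletal muscle markers were called lower in 6 of 10 at 3 d, with CKM at −5.39, MYH3 at −1.62 and DES at −1.51, and summed to 888.7, 297.2, 406.4 and 321.5 FPKM, with DES the most abundant. At 6 d and at 9 d vs. 0 d, 7 of these 10 were called lower, beside 7.97% and 7.47% of all mRNAs. Smooth muscle and pericyte markers were called lower in 6 of 7 at 3 d, with ACTA2 at −5.98, CSPG4 at −4.52 and NOTCH3 at −3.67. They summed to 2597, 256.4, 2492 and 1087 FPKM, with ACTA2 the most abundant by mean, so that their sum was lowest at 3 d. The other marker tested, MYH11, named after its values were seen, lay the other way, at 23.7, 26.3 and 19.8 FPKM at 0 d and 60.6, 59.7 and 51.2 FPKM at 3 d, and was not called (adjusted p = 0.118). DES stands in both muscle lists. At 6 d vs. 0 d, 2 smooth muscle and pericyte markers were called higher and 2 lower, beside 3.39% and 7.97% of all mRNAs. At 9 d vs. 0 d, 3 of them were called lower (7.47% of all mRNAs). Between later days, 6 were called higher at 6 d vs. 3 d (9.85%) and 3 lower at 9 d vs. 6 d (1.89%). At 9 d vs. 3 d, 5 were called higher and 1 lower (10.2% and 10.3%).

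Markers of blood vessel and blood cells were low in all libraries. Endothelial markers, of which 4 were tested and none called by limma at 3 d vs. 0 d (3 at an unadjusted p under 0.05), summed to 3.43, 3.63, 2.83 and 3.33 FPKM. VWF was the most abundant, with log2 fold changes at 3 d vs. 0 d of 0.91 for TEK (1.02 and called without 0 d replicate 2), −0.76 for ERG and −0.33 for VWF. CLDN5 was called lower at 6 d vs. 0 d, beside 7.97% of all mRNAs, and ERG higher at 9 d vs. 0 d, beside 3.41%. Between later days, ERG was called higher at 9 d vs. 6 d and vs. 3 d. TEK was called lower at 6 d and 9 d vs. 3 d, and CLDN5 lower at 6 d vs. 3 d. Macrophage and other leucocyte markers summed to 1.27, 3.63, 2.20 and 2.90 FPKM. Of 3 tested, CD14 (1.71) and CSF1R (1.23, not called without 0 d replicate 3) were called higher at 3 d and CD68 (0.33) was not, CD14 was the most abundant, and PTPRC and ITGAM were listed at 0 in all 12 libraries. No mast cell marker passed the filter, the list summed to at most 0.33 FPKM in any library, its most abundant gene KIT stood at 0.27, 0.33 and 0.26 FPKM at 3 d, the day of high PTGS1, and at no more than 0.02 FPKM in the other libraries, and FCER1A and TPSB2 were listed at 0. Proliferation markers, of which 10 were tested and none called by limma vs. 0 d (4, 2 and 5 at an unadjusted p under 0.05 on days 3, 6 and 9), summed to 151.8, 197.7, 162.4 and 141.1 FPKM. PLK1 was the most abundant, with log2 fold changes at 3 d of 0.90 for TOP2A, 0.88 for CDK1 (1.34 and called without 3 d replicate 2) and 0.76 for BUB1, and 1 marker was called without 3 d replicate 1. The part of the marker lists in the levels of PTGS1, PTGS2, the synthases and the receptors was not tested.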

How the data were processed

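The mRNA values were deposited as FPKM, which the authors made by mapping reads and assembling transcripts, on a bovine genome per the paper, where the labels name a mouse build. For circRNAs the authors deposited counts of back-spliced reads and a scaled signal (SRPBM), of which the counts were used. The labels name poly(A) RNA and the paper names rRNA depletion. FPKM cannot be turned back into counts, so limma 3.58.1 in R 4.3.3 (lmFit, contrasts.fit, eBayes with a trend) was fitted once to log2(FPKM + 0.1) of the 12 libraries, each day having its own mean. The paper used edgeR. The filter was a mean of at least 0.1 FPKM, and p-values were adjusted by Benjamini-Hochberg over the 15402 mRNAs tested in each of the 6 comparisons. The fit was tested on simulated data, where it missed some of the changes put in, and the limit for passing was lowered after the first run did not reach it. Alternatives were other pseudocounts (1 and 0.01), no filter or at least 1 FPKM, rescaled FPKM, only the 6 libraries compared, a replicate block, the adjusted p alone and leaving out each library. Named genes were the 10 prostaglandin genes, eicosanoid genes called vs. 0 d, the most abundant gene and at most 3 with the largest change at 3 d of each context list (glucocorticoid, cyclic AMP, inflammatory, lipid synthesis) and marker list, and the 2 mRNAs most like each prostaglandin gene. Some eicosanoid genes not called vs. 0 d, and genes listed at or near 0, were named besides. CIDEA, CLDN5, ADIPOQ, CEBPA and MYH11 of the marker lists were named outside this rule. Members and lists were chosen with earlier results of these data known. Tables and figures used Python 3.11.15, pandas 2.3.3 and Matplotlib 3.10.9.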

Additional observations from a re-analysis of the deposited data

Results flagged for a closer look

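Of 14070 circRNAs, circular RNAs seen through reads across a back-splice, 1 has a prostaglandin gene as host, PTGFR. It had 2 back-spliced reads in 9 d replicate 1 and 0 in the other 11 libraries, among them all 3 of 0 d, and it is given because circRNAs were outside the comparisons above. The total of back-spliced reads was 9726 in that library and 6564 to 8113 at 0 d, so that 2 reads lie within what a count of 0 allows in any library, which is up to 3 counts. No difference in this circRNA was detectable at this depth.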

How the results depend on the processing

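Over the 60 log2 fold changes of the 10 prostaglandin genes, 834 values came from other settings. Of these, 784 kept their direction and side of the threshold, 20 lost a call, 25 gained one and 5 changed sign. Of 30 called results, 21 were called under every setting run and none changed sign. The setting of the adjusted p alone can add calls but cannot lose any, so it is no check on the called results. The 30 include the calls of PTGER2, which are given as descriptions. The cause of the differences was not tested. With a pseudocount of 1, 3 of the 10 genes were called at 6 d vs. 0 d (5 as reported) and 2 at 6 d vs. 3 d (4 as reported), beside 967 and 1688 of 15402 mRNAs. On the adjusted p alone, which drops the limit on size, 9 were called at 6 d vs. 0 d, 7 at 9 d vs. 0 d and 8 at 9 d vs. 6 d (5, 4 and 4 as reported), beside 34.8%, 36.8% and 20.7% of all mRNAs. With 1 library left out, 2 to 5 were called at 6 d vs. 3 d, the lowest without 3 d replicate 2, beside 18.2% to 19.0% of all mRNAs, so that 2 of 10 is near that share.

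For the 30 other eicosanoid genes, all settings were chosen after seeing the data. With a pseudocount of 1, 1 was called at 6 d vs. 0 d, 4 at 6 d vs. 3 d, 3 at 9 d vs. 6 d and 6 at 9 d vs. 3 d (4, 8, 6 and 11 as reported), beside 967, 1688, 368 and 1863 of 15402 mRNAs. With a minimum of 1 FPKM, which left 21 of them, 1 was called at 6 d vs. 0 d, 3 at 9 d vs. 0 d, 3 at 9 d vs. 6 d and 5 at 9 d vs. 3 d, beside 10.3%, 9.83%, 4.19% and 20.1% of all mRNAs with that minimum. On the adjusted p alone, 17, 16 and 12 were called at 3 d, 6 d and 9 d vs. 0 d, 20 at 6 d vs. 3 d and 20 at 9 d vs. 3 d, beside 52.2%, 34.8%, 36.8%, 49.5% and 51.4% of all mRNAs. With 1 library left out, 2 to 4 were called at 6 d vs. 0 d, the lowest without 0 d replicate 2 or without 6 d replicate 2, beside 1689 to 1750 of 15402 mRNAs.

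Values that changed sign were small, and none was called. With rescaled FPKM, PTGER2 at 9 d vs. 0 d was 0.113 and PTGR2 at 6 d vs. 0 d was 0.119. With 1 library left out, log2 fold changes ran from −0.153 to 0.122 for PTGER2 at 9 d vs. 0 d, from −0.27 to 0.383 for PTGER4 at 9 d vs. 0 d, from −0.179 to 0.056 for HPGD at 6 d vs. 3 d, from −0.121 to 0.016 for PTGR2 at 6 d vs. 0 d and from −0.001 to 0.823 for LTB4R2 at 3 d vs. 0 d. They ran from −0.355 to 0.086 for SLCO3A1 at 6 d vs. 0 d, from −0.185 to 0.122 for DAGLA at 9 d vs. 6 d and from −0.001 to 0.096 for ANXA1 at 9 d vs. 6 d. Those of CD68 at 3 d vs. 0 d ran from −0.032 to 0.629.

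Whether the replicate numbers pair the libraries, by animal or by culture, was not known here. After subtracting each day's mean, correlations between days were −0.0981 to 0.112 for the same number and −0.190 to 0.183 for other numbers. With 3 libraries a day, these overlapping ranges cannot exclude a shared animal or culture. With the replicate number as a term (replicate block), 7, 5, 4, 4, 4 and 6 of the 10 genes were called in the 6 comparisons, as reported, and MGLL was not called at 9 d vs. 0 d (adjusted p = 0.0642). With 3 libraries a day, no test for outlying libraries was run, and promoter motifs were not run because no promoter sequences were used here. The reads behind each FPKM were not counted here, which limits genes near 0 such as PTGER2 and PTGER3 most.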
